A study of Mus musculus with 8 samples.

Results

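The 8 genes described here, Lasp1, Plxdc1, Cacnb1, Rpl19, Stac2, Fbxl20, Med1 and Cdk12, lie in that order on mouse chromosome 11 and end with Cdk12 on the side nearest to Erbb2. They were taken as a list of named genes on the Cdk12 side of Erbb2, each read by the probe with exactly 1 gene symbol and the highest mean over the 8 tumours. All 8 were found, of 22180 genes measured in all, and all 8 were among the 16635 genes bright enough to be tested. The list was drawn up with the levels of these genes in these tumours already known, so the levels and the differences between tumours are given as a description, with no test.

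Total RNA of primary tumours of the mammary gland was put on arrays, 1 array per tumour; the mice were transgenic FVB animals. All tumours carried NeuNT: 4 had the genotype NeuNT, and 4 had the genotype NeuNT/H1074R, a change in p110α that the series title spells H1047R. NeuNT is an activated form of the rat ErbB2 receptor, and p110α is the kinase subunit of a PI3K enzyme. The labels give neither the promoter that drives each transgene nor the ages of the mice, and they do not say whether each tumour came from its own mouse, so p-values measure only the spread between these tumours. The probes read mouse genes by their symbols, and no DNA was measured. In RNA of a whole tumour, fewer cells of a type and less RNA per cell cannot be told apart.

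In human breast cancer the chromosome segment that holds ERBB2 is often gained in copy number together with its neighbours, and MED1 and CDK12 are among the genes that can be gained with it. Med1 is the subunit through which the Mediator complex meets nuclear receptors, and Cdk12, with cyclin K, is a kinase of the tail of RNA polymerase II that sustains the transcription of long genes, many DNA repair genes among them. Fbxl20 is an F-box protein, which gives an SCF ubiquitin ligase its substrates. Stac2 and Cacnb1 bind voltage-gated calcium channels, Rpl19 is a protein of the large ribosomal subunit, Plxdc1 is a membrane protein known from the endothelium of tumour vessels, and Lasp1 binds actin.

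Fbxl20, Med1 and Cdk12 are the members nearest to Erbb2 and carry most of what follows, so their promoter windows are shown, from 250 bases before to 50 after the annotated start, from RefSeq (assembly GRCm38.p6), 5′ to 3′ along each gene. Capitals mark a GC box (GGGCGG) or a CCAAT box (CCAAT), on either strand.
Fbxl20, chr11:98149567-98149866, minus strand: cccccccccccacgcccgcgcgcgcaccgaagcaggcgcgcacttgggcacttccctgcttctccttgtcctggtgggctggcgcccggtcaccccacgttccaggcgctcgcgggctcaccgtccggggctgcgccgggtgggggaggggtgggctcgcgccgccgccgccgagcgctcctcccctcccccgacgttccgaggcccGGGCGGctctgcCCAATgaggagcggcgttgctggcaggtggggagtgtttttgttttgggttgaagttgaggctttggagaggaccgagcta
Med1, chr11:98192857-98193156, minus strand: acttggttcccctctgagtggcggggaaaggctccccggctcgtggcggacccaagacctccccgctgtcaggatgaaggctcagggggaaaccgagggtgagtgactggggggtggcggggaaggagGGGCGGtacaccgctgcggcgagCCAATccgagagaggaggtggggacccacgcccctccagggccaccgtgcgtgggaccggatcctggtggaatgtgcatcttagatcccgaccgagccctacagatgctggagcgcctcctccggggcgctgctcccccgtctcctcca
Cdk12, chr11:98203055-98203354, plus strand: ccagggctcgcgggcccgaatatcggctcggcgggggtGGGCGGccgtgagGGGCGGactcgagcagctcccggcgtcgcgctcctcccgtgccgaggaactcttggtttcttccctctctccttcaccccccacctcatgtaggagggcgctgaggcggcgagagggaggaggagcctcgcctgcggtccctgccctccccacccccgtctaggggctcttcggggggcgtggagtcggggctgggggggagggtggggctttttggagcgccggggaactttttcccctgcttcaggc

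The Fbxl20 and Med1 windows each held 1 GC box and 1 CCAAT box, and the Cdk12 window held 2 GC boxes and 0 CCAAT boxes. Of the 32851 promoter windows of the same length in the table, 35.7% held a GC box and 37.4% a CCAAT box. All of these windows were rich in G and C, at 72.3% for Fbxl20, 68.3% for Med1 and 71.3% for Cdk12, against a median of 52.7% over all windows. The pair CG occurred 33 times in the Fbxl20 window, 22 times in that of Med1 and 27 times in that of Cdk12, against a median of 7. A TATA box (TATAAA, in 13.6% of all windows), a cyclic AMP response element (TGACGTCA, in 1.79%) and the palindromic site of NRF1 (in 4.6%) were found in 0 of the 8 windows that RefSeq's table gave for 6 members. Plxdc1 and Stac2 were the members with no window in that table.

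The deposited values are log2 levels, so 1 unit is a doubling, and a tumour is called high or low below where it lay 0.5 or more from the median of the other 7 tumours. By that limit 32 of the 64 pairs of a member and a tumour were high or low, against 15.5% of all pairs of a tested gene and a tumour. Nothing is read from this or from the counts by tumour, because the list was chosen on these levels. The pairs nearest the limit on its outer side were Plxdc1 in NeuNT replicate 3 at -0.52 and Cdk12 in NeuNT/H1074R replicate 2 at 0.53. On its inner side lay Lasp1 in NeuNT/H1074R replicate 4 at -0.41. The range from the lowest to the highest tumour had a median of 2.74 over the members and of 0.741 over all tested genes.

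By tumour, NeuNT replicate 1 was high for 4 members and low for 1, against 7.96% and 6.46% of all tested genes. NeuNT replicate 2 was high for 1 and low for 4 (11.4% and 7.48%), and NeuNT replicate 3 was high for 3 and low for 2 (9.89% and 8.16%). NeuNT replicate 4 was high for 0 and low for 2 (8.49% and 9.22%). In the other genotype, NeuNT/H1074R replicate 1 was high for 1 member and low for 2 (6.3% and 5.04%), and NeuNT/H1074R replicate 2 was high for 3 and low for 0 (6.5% and 5.65%). NeuNT/H1074R replicate 3 was high for 5 and low for 0 (7.09% and 7.84%), the most high members of any tumour. NeuNT/H1074R replicate 4 was high for 1 and low for 3 (6.87% and 9.31%).

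**Figure D1:**
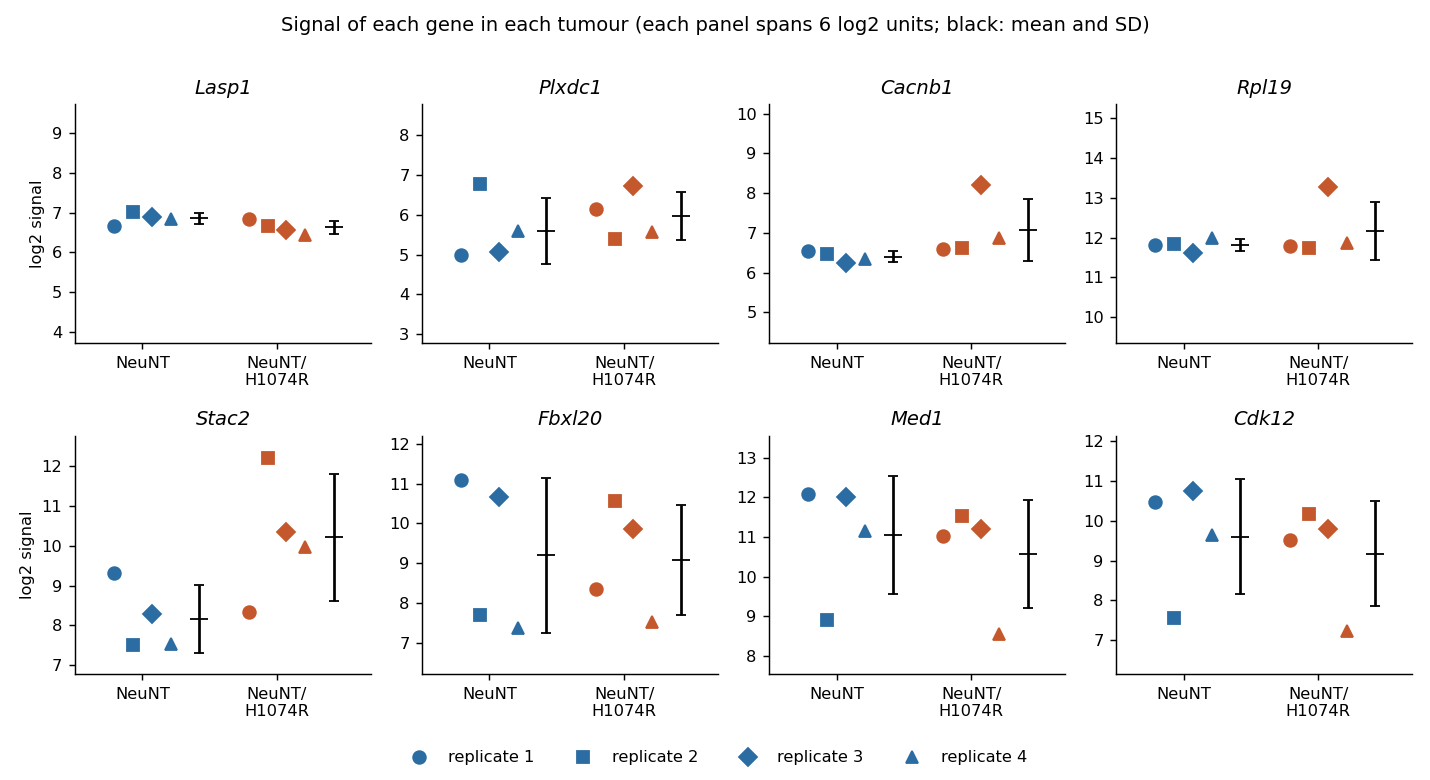
Log2 level of each of the 8 members (vertical axis, 6 log2 units in every panel) in each tumour, with NeuNT in blue and NeuNT/H1074R in orange, a marker shape for each replicate and a bar at each group's mean. Stac2, Fbxl20, Med1 and Cdk12 spread over more than 3 log2 units, and Lasp1 over 0.57.

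Cdk12 had log2 levels of 10.47, 7.55, 10.75 and 9.64 in NeuNT replicates 1 to 4, and of 9.52, 10.17, 9.80 and 7.23 in NeuNT/H1074R replicates 1 to 4. One tumour of each genotype stood far below the rest, NeuNT replicate 2 and NeuNT/H1074R replicate 4, so the genotypes overlapped. Against the median of the other 7 tumours these lay at -2.25 and -2.57. NeuNT replicates 1 and 3 and NeuNT/H1074R replicate 2 were high, by 0.83, 1.11 and 0.53, and the remaining 3 tumours lay between -0.28 and 0.16. The highest level was 11.5 times the lowest on the linear scale, and 2.0% of tested genes had a range as wide.

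Med1 was measured at 12.09, 8.90, 12.02 and 11.16 in the NeuNT tumours in the same order, and at 11.02, 11.52, 11.20 and 8.55 in the NeuNT/H1074R tumours. NeuNT replicate 2 and NeuNT/H1074R replicate 4 were again the lowest, at -2.30 and -2.65 from the median of the other 7, and NeuNT replicates 1 and 3 the highest, at 0.93 and 0.86. The other 4 tumours lay between -0.18 and 0.36, and the genotypes overlapped. Med1 and Cdk12 are next to each other in the RefSeq order, and their differences from the median never parted by more than 0.25 in any tumour. Across the 8 tumours their levels had a Pearson r of 0.996 and a Spearman rho of 0.976, and r was 0.965 without NeuNT replicate 2 and NeuNT/H1074R replicate 4. Both correlations describe the same 8 arrays, on which all genes were measured together.

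Mir5119, a microRNA gene whose annotated span lies inside that of Cdk12, had log2 levels of 7.28, 2.98, 7.41 and 5.23 in the NeuNT tumours and of 5.46, 7.63, 5.68 and 3.71 in the NeuNT/H1074R tumours. Its lowest tumours were those in which Cdk12 was lowest, at -2.70 and -1.97 from the median of the other 7. The mature sequence is shown from RefSeq because the gene lies within a member, with its seed (bases 2 to 8) in capitals. Whether its probe read the microRNA or the RNA of Cdk12 was not tested.
mmu-miR-5119: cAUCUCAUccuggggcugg

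Fbxl20 had levels of 11.08, 7.69, 10.66 and 7.36 in the NeuNT tumours and of 8.36, 10.57, 9.87 and 7.52 in the NeuNT/H1074R tumours. The values lay in an upper range of 9.87 to 11.08, which held NeuNT replicates 1 and 3 and NeuNT/H1074R replicates 2 and 3, and a lower range of 7.36 to 8.36, which held the other 4. Each genotype had tumours in both ranges. Because no tumour lay between the ranges, all 8 were 0.5 or more from the median of the other 7, from -2.51 in NeuNT replicate 4 to 2.73 in NeuNT replicate 1. The linear fold from lowest to highest was 13.2, and 1.75% of tested genes had a range as wide. Fbxl20 parted from Med1 by 0.5 or more in 6 tumours. In NeuNT replicate 4 and NeuNT/H1074R replicate 1 it was low at -2.51 and -1.51 while Med1 was at -0.04 and -0.18. In NeuNT replicates 1 and 3 and NeuNT/H1074R replicates 2 and 3 it was the higher of the pair, at 2.73, 2.31, 2.21 and 1.51, while Med1 was at 0.93, 0.86, 0.36 and 0.04. Its Pearson r was 0.763 with Med1 and 0.782 with Cdk12, with Spearman rho of 0.857 and 0.833. Without the 2 tumours farthest from its median, r was 0.904 and 0.922.

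Stac2 had the widest range of the members, with levels of 9.33, 7.51, 8.27 and 7.54 in the NeuNT tumours and of 8.34, 12.22, 10.34 and 9.97 in the NeuNT/H1074R tumours. NeuNT/H1074R replicates 2, 3 and 4 held the highest levels, while NeuNT/H1074R replicate 1 lay below NeuNT replicate 1, so the groups overlapped. The differences from the median of the other 7 were 3.89, 2.01 and 1.63 in those 3 tumours and 0.99 in NeuNT replicate 1. They were -1.82, -1.05 and -1.79 in NeuNT replicates 2 to 4 and -0.99 in NeuNT/H1074R replicate 1. The highest level was 26.3 times the lowest on the linear scale, and 0.866% of tested genes had a range as wide. Over the tumours Stac2 did not run with Cdk12, with a Pearson r of 0.178 and a Spearman rho of 0.190, and r was -0.142 without the 2 tumours farthest from the median of Stac2.

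Rpl19 stood at 11.82, 11.83, 11.62 and 11.99 in the NeuNT tumours and at 11.78, 11.75, 13.27 and 11.87 in the NeuNT/H1074R tumours. NeuNT/H1074R replicate 3 was the single high tumour, at 1.45 from the median of the other 7, and the other 7 lay between -0.21 and 0.17. The identifier of this probe falls among those of genes on chromosome 8, for 12 of its 12 nearest identifiers with a named gene, while that of a second Rpl19 probe falls among those of chromosome 11. That second probe was dimmer and read between 5.12 and 5.42 in 7 tumours and 7.30 in NeuNT/H1074R replicate 3, which was 1.96 above the median of the other 7. The same tumour was high on both probes.

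Cacnb1 was at 6.55, 6.48, 6.25 and 6.33 in the NeuNT tumours and at 6.59, 6.61, 8.21 and 6.86 in the NeuNT/H1074R tumours. NeuNT/H1074R replicate 3 was again the single high tumour, at 1.66, and all others lay between -0.34 and 0.31. The genotypes did not overlap, with the highest NeuNT tumour at 6.55 and the lowest NeuNT/H1074R tumour at 6.59. The annotated spans of Cacnb1 and Rpl19 overlap, and no source used here says how the probes handle the overlap. Their r of 0.948 rested on NeuNT/H1074R replicate 3: without that tumour and NeuNT replicate 3 it was -0.438, and Spearman rho over all 8 was 0.405.

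Skeletal muscle markers were also high in NeuNT/H1074R replicate 3. Of 17 markers 16 were tested and 15 were high there, with a median of 1.53, and 14 were high in NeuNT/H1074R replicate 1, with a median of 1.24. The summed level, given as the mean log2 level over the 16, was 5.02 to 5.45 in the NeuNT tumours and 5.16 to 6.89 in the NeuNT/H1074R tumours, and in the other 6 tumours the list's median lay between -0.25 and 0.03. Mylpf was too dim to be tested. In NeuNT/H1074R replicate 1, where these markers were high as well, Cacnb1 lay at 0.04.

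Plxdc1 had levels of 4.98, 6.78, 5.07 and 5.59 in the NeuNT tumours and of 6.14, 5.40, 6.73 and 5.57 in the NeuNT/H1074R tumours. NeuNT replicate 2 and NeuNT/H1074R replicate 3 were the highest, at 1.21 and 1.16 from the median of the other 7, and NeuNT/H1074R replicate 1 followed at 0.57. NeuNT replicates 1 and 3 were low, at -0.60 and -0.52, and the genotypes overlapped. Plxdc2, the other gene of its family, was high in NeuNT replicate 2, at 1.31, but lay at 0.20 in NeuNT/H1074R replicate 3 and -0.47 in NeuNT/H1074R replicate 1. It was also high in NeuNT/H1074R replicate 2, at 0.60, where Plxdc1 lay at -0.18. Of 10 endothelial markers, all tested, 7 were high in NeuNT replicate 2, with a median of 0.59, while their median in NeuNT/H1074R replicate 3 was -0.08. Their mean level was 6.59 to 7.54 in the NeuNT tumours and 6.75 to 6.998 in the NeuNT/H1074R tumours. In NeuNT replicate 2, 9 of 9 adipocyte markers and 6 of 8 tested fibroblast markers were high too, with medians of 1.08 and 0.78, against 0.07 and -0.83 in NeuNT/H1074R replicate 3. The mean level of the adipocyte list was 5.70 to 7.13 in NeuNT and 5.36 to 6.27 in NeuNT/H1074R, and that of the fibroblast list was 7.87 to 9.33 and 7.77 to 8.75. Markers of basal and myoepithelial cells, 6 of 7 tested, had medians of 2.20 in NeuNT replicate 2 and 1.36 in NeuNT/H1074R replicate 3, the highest tumours for Plxdc1, and of 0.92 in NeuNT/H1074R replicate 1, where Plxdc1 was high as well. The median was -0.61 and -1.02 in NeuNT replicates 1 and 3, where Plxdc1 was low. It was 1.34 in NeuNT replicate 4, -0.84 in NeuNT/H1074R replicate 2 and -0.68 in NeuNT/H1074R replicate 4, where Plxdc1 lay at 0.01, -0.18 and -0.01. All 6 were high in NeuNT replicate 2 and NeuNT/H1074R replicate 3. In NeuNT/H1074R replicate 1, 3 were high and 1 low. In NeuNT replicate 4, Krt14, Krt17 and Trp63 were high, at 4.05, 3.96 and 2.33, while Acta2, Myh11 and Oxtr lay at -0.16, 0.34 and -0.10. The mean level of the basal and myoepithelial list was 6.65 to 9.52 in the NeuNT tumours and 6.85 to 9.60 in the NeuNT/H1074R tumours. The part of these cell types in the level of Plxdc1 was not tested.

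Lasp1, the member farthest from Erbb2, had levels of 6.67, 7.01, 6.89 and 6.84 in the NeuNT tumours and of 6.84, 6.67, 6.55 and 6.43 in the NeuNT/H1074R tumours. All 8 tumours lay within 0.5 of the median of the other 7, from -0.41 to 0.34, and the genotypes overlapped. Its range of 0.57 was matched or passed by 68.7% of tested genes. The tumours that were low for Med1 and Cdk12 held the highest and the lowest level of Lasp1.

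Read along the chromosome, the profile of a tumour changes where the differences of consecutive members part, and a change of 0.5 or more is called a step. Among 56 pairs of consecutive members and tumours there were 26 steps of 0.5 or more. The share over all pairs of neighbouring tested genes on a chromosome was 27.3%. There were 11 steps of 1.5 or more, against 3.01%. The shares use adjacent tested genes, whereas the pair of Lasp1 and Plxdc1 skips B230217C12Rik, a tested gene between them. Nothing is read from these counts, because the list was chosen on these levels. All 11 of the larger steps fell between Rpl19 and Med1: 4 from Rpl19 to Stac2, 4 from Stac2 to Fbxl20 and 3 from Fbxl20 to Med1. From Cacnb1 to Rpl19 and from Med1 to Cdk12 there were 0 steps of 0.5 or more in any tumour. From Lasp1 to Plxdc1 and from Plxdc1 to Cacnb1 there were 3 each, with the largest at 1.45 and -1.33.

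The steps fell in different places in different tumours. NeuNT/H1074R replicate 2 rose by 3.97 from Rpl19 to Stac2, then stepped by -1.67 to Fbxl20 and by -1.86 to Med1. NeuNT/H1074R replicate 4 rose by 1.59 to Stac2 and dropped by 3.97 to Fbxl20, and it stayed low through Cdk12. NeuNT/H1074R replicate 3 was high from Plxdc1 through Fbxl20 and came back to 0.04 at Med1, with a step of -1.47. NeuNT/H1074R replicate 1 lay low at Stac2 and Fbxl20 and rose by 1.33 to Med1.

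Among the NeuNT tumours, replicate 1 rose at Stac2 and Fbxl20, with the larger step, 1.74, into Fbxl20, and dropped by 1.79 to Med1, where it was still high. NeuNT replicate 2 dropped by 1.83 from Rpl19 to Stac2 and was low at Stac2, Fbxl20, Med1 and Cdk12. NeuNT replicate 3 was low at Stac2 and rose by 3.36 to Fbxl20. NeuNT replicate 4 was low at Stac2 and Fbxl20 and rose by 2.47 to Med1. With the brighter Rpl19 probe, every tumour had a step of 0.5 or more from Rpl19 to Stac2. It was upward in NeuNT replicate 1 and NeuNT/H1074R replicates 2, 3 and 4 and downward in the other 4. The identifier of that probe falls among those of chromosome 8. On the second Rpl19 probe, among those of chromosome 11, NeuNT/H1074R replicate 3 lay at 1.96, and Stac2 lay at 2.01 there. The step in that tumour was thus not seen with the second probe. Steps were counted with the brighter probe only.

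**Figure D2:**
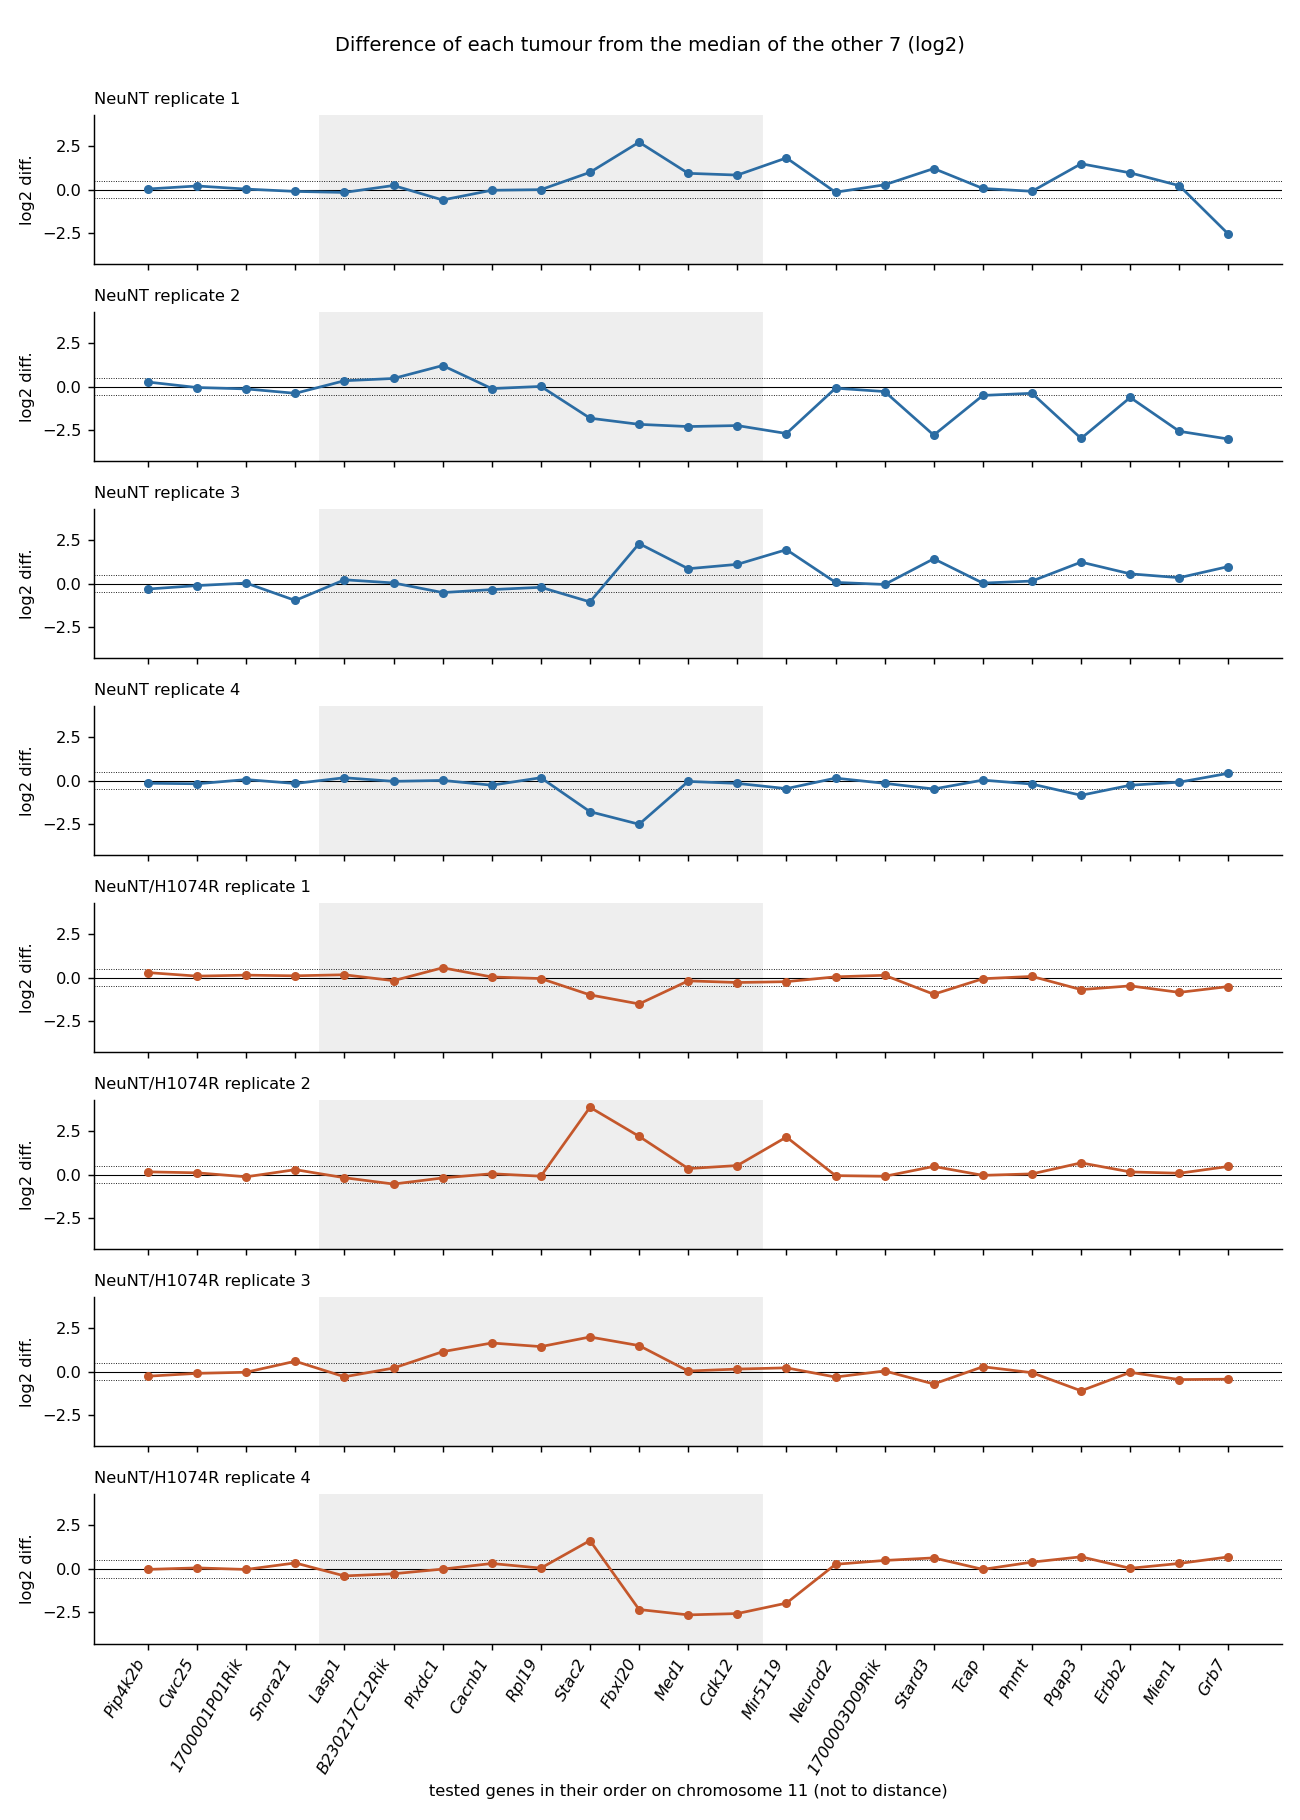
Difference of each tumour from the median of the other 7 (vertical axis, log2) for the tested genes from Pip4k2b to Grb7. Genes are in RefSeq order (horizontal axis, not to scale in bases), and B230217C12Rik, between Lasp1 and Plxdc1, is not a member. There is 1 panel per tumour, with NeuNT in blue and NeuNT/H1074R in orange. The grey band spans Lasp1 to Cdk12 and the dotted lines mark 0.5 to either side; the profiles part from 0 mainly from Stac2 onward, as in NeuNT/H1074R replicate 2 with 3.89 at Stac2.

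Beyond Lasp1, away from Erbb2, 9 of the 10 nearest measured genes lay within 0.5 of the median of the other 7 in all 8 tumours. Snora21 was the other, at -0.97 in NeuNT replicate 3 and 0.61 in NeuNT/H1074R replicate 3. Beyond Cdk12, NeuNT replicate 2 was low for Stard3 at -2.80, Pgap3 at -2.99, Erbb2 at -0.63, Mien1 at -2.58 and Grb7 at -3.02. Of the measured genes between them and Cdk12 or among them, Tcap was at -0.51, and Neurod2 at -0.09, 1700003D09Rik at -0.29 and Pnmt at -0.39 were within the limit. NeuNT/H1074R replicate 4, which was at -2.57 for Cdk12, was at 0.63 for Stard3 and 0.03 for Erbb2. In this tumour the low genes were Fbxl20, Med1, Cdk12 and its inner Mir5119, and the next measured gene, Neurod2, was at 0.26. Neurod2 had mean levels of 4.76 in NeuNT and 4.75 in NeuNT/H1074R, with a range of 0.51 over all tumours. Pnmt had mean levels of 4.31 and 4.54 and a range of 0.72. Genes with such low and flat levels cannot show where a low stretch ends or breaks, so no boundary is read from them.

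Over the 8 tumours the Pearson r of Cdk12 was 0.591 with Stard3, 0.581 with Pgap3, 0.606 with Erbb2, 0.511 with Mien1 and 0.226 with Grb7. In NeuNT/H1074R replicate 4 Cdk12 lay at -2.57, while these genes lay at 0.63, 0.69, 0.03, 0.31 and 0.69 in that order. That tumour and NeuNT replicate 2 were the 2 farthest from the median of Cdk12. With both left out, r over the remaining 6 tumours was 0.975, 0.901, 0.899, 0.837 and -0.107. The rise thus comes with leaving out a tumour in which the genes parted. The last value includes NeuNT replicate 1, where Grb7 lay at -2.57 from the median of the other 7. In that tumour Mien1 lay at 0.22 and Cdk12 at 0.83. Erbb2, the receptor gene itself, ranged from 8.73 in NeuNT replicate 2 to 10.28 in NeuNT replicate 1. The sources used here do not say whether its probe reads the transgene.

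Between genotypes, 4 of the 8 members were higher in the NeuNT/H1074R tumours and 4 lower, beside 8229 higher of all 16635 tested genes. With limma and Benjamini-Hochberg adjustment 0 of 8 passed an adjusted p of 0.05, against 0.0% of all tested genes. At an unadjusted p under 0.05 the count was 1 of 8, against 3.82%. The groups did not overlap for 1 of 8, Cacnb1, against 2.69% in either direction and 1.59% with NeuNT/H1074R above. The median difference, NeuNT/H1074R minus NeuNT, was 0.12 over the members and -0.0027 over all tested genes. Because the list was chosen with these levels known, the p-values and intervals of the members serve as a description only.

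Stac2 was the member with the unadjusted p under 0.05, with means of 8.16 ± 0.85 in NeuNT and 10.22 ± 1.595 in NeuNT/H1074R (SD, n = 4 each). The difference was 2.06 ± 0.76 (SE), with a 95% interval of 0.31 to 3.80, a limma p of 0.026 and an adjusted p of 0.978 over all tested genes. Leaving out NeuNT/H1074R replicate 2 gave 1.39, and leaving out NeuNT/H1074R replicate 1 gave 2.68. Cacnb1 had means of 6.40 ± 0.14 and 7.07 ± 0.77, a difference of 0.67 ± 0.34 (-0.12 to 1.45) and a limma adjusted p of 0.978. Without NeuNT/H1074R replicate 3 its difference was 0.28.

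Cdk12 had means of 9.61 ± 1.45 in NeuNT and 9.18 ± 1.33 in NeuNT/H1074R, a difference of -0.43 ± 0.83 (-2.32 to 1.47) and a limma adjusted p of 0.984. Med1 had means of 11.04 ± 1.49 and 10.57 ± 1.36, a difference of -0.47 ± 0.85 (-2.41 to 1.47) and a limma adjusted p of 0.980. Each genotype held 1 low tumour. Without NeuNT replicate 2 the differences were -1.11 for Cdk12 and -1.18 for Med1, and without NeuNT/H1074R replicate 4 they were 0.23 and 0.21. For Fbxl20 the means were 9.20 ± 1.95 and 9.08 ± 1.39, with a difference of -0.12 ± 1.01 (-2.42 to 2.18) and a limma adjusted p of 0.996. Leaving out 1 tumour moved it from -0.73, without NeuNT replicate 4, to 0.51, without NeuNT replicate 1.

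Rpl19 had means of 11.81 ± 0.15 and 12.17 ± 0.74 and a difference of 0.35 ± 0.32 (-0.39 to 1.09), which was -0.017 without NeuNT/H1074R replicate 3. Plxdc1 had means of 5.61 ± 0.83 and 5.96 ± 0.60 and a difference of 0.36 ± 0.44 (-0.65 to 1.36), which ran from 0.10 (NeuNT/H1074R replicate 3 left out) to 0.75 (NeuNT replicate 2 left out). Lasp1 had means of 6.85 ± 0.14 and 6.63 ± 0.17 and a difference of -0.23 ± 0.14 (-0.54 to 0.08). The limma adjusted p was 0.978 for each of them. The narrow interval of Lasp1 bounds its difference more closely than that of any other member.

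**Figure D3:**
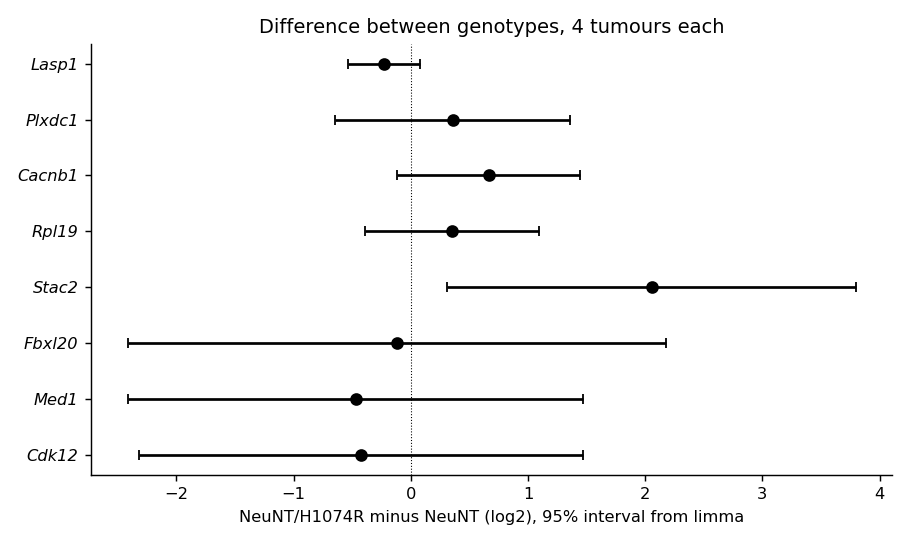
Difference between genotypes (NeuNT/H1074R minus NeuNT, log2, horizontal axis) for each of the 8 members, with points at limma's estimate and bars for its 95% interval. All intervals but that of Stac2, 0.31 to 3.80, take in 0. Those of Fbxl20, Med1 and Cdk12 span close to 4 log2 units or more. The members were chosen with their levels known, so the intervals serve as a description only.

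Over the 32 other Mediator subunits, all tested, limma with Benjamini-Hochberg adjustment called 0 higher and 0 lower, and 1 had an unadjusted p under 0.05. There were 12 with a higher and 20 with a lower estimate, beside 8229 of all 16635 tested genes with a higher one. The median difference was -0.03, beside -0.0027 over all tested genes. The split was not stable to scaling: 17 were higher after quantile normalization, with a median of 0.0087, and 8 after centring each array on its median. Over all tested genes 8697 were higher after quantile normalization and 7518 after centring. Med27 differed by -0.37 ± 0.13 and Med15, in the Mediator tail, by -0.18. Cdk8 and Ccnc, the kinase of the Mediator and its cyclin, differed by -0.38 and -0.32. In NeuNT replicate 2 and NeuNT/H1074R replicate 4, where Med1 was lowest, the list's median was 0.02 and -0.01.

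Among 8 partners of Cdk12 and other kinases of transcription elongation, all tested, limma called 0 in either direction and 0 had an unadjusted p under 0.05. There were 5 estimates higher and 3 lower, with a median of 0.09, beside 8229 higher of all 16635 tested genes. Cdk13, the kinase most like Cdk12, differed by 0.28, and Ccnt2, a cyclin of Cdk9, by -0.25. Mnat1 and Ccnh, parts of the kinase complex of TFIIH, differed by 0.17 and 0.13. In NeuNT replicate 2 and NeuNT/H1074R replicate 4, where Cdk12 was lowest, the list's median was -0.01 and 0.09.

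Of 18 DNA repair genes in the list drawn up for Cdk12, 16 were tested, and limma called 0 higher and 0 lower. Whether each of them depends on Cdk12 was not tested. There were 2 with an unadjusted p under 0.05, which were Rad51c at -0.39 ± 0.16 and Atm, the kinase that answers double-strand breaks, at 0.48 ± 0.20. Nbn differed by -0.36 and Fancm by 0.15, and the median over the 16 was 0.09. In NeuNT/H1074R replicate 4 there were 4 low and 2 high of the 16, in NeuNT replicate 2 there were 3 low, and the list's median in them was -0.17 and -0.27. In NeuNT replicate 3, where Cdk12 was highest, 2 were low and 0 high, and the median was -0.18, between the medians of those tumours. The list's median was highest in NeuNT replicate 1, at 0.23.

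Of 45 large ribosomal subunit genes besides Rpl19, 34 were tested, and limma called 0 higher and 0 lower, with 1 at an unadjusted p under 0.05. There were 27 with a higher and 7 with a lower estimate, with a median of 0.10 (25 higher after quantile normalization and 22 after median centring). Over all 16635 tested genes 8229 had a higher estimate, 8697 after quantile normalization and 7518 after median centring. Examples were Rpl39 at 0.32, Rpl3 at 0.33, Rpl14 at 0.24 and Rpl11 at -0.18. In NeuNT/H1074R replicate 3, where Rpl19 was high, 3 of the 34 were high and the list's median was 0.10. The high level of Rpl19 in that tumour was thus not seen across the list. Ribosomal protein genes have many near-identical copies in the genome, so which copy a probe reads is uncertain.

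The lists for the remaining members gave 0 calls with limma as well. For the splits below, 8229 of all 16635 tested genes had a higher estimate, and 8697 after quantile normalization. In the SCF and Fbxl list 15 of 21 genes were tested, with 0 at an unadjusted p under 0.05, 4 higher and 11 lower estimates (7 higher after quantile normalization) and a median of -0.03. Among calcium channel beta subunits, channel genes and Stac genes, 7 of 8 were tested with 0 at an unadjusted p under 0.05, 5 higher and 2 lower estimates and a median of 0.03. Cacna1s, the channel pore of skeletal muscle, was 0.97 above the median of the other 7 in NeuNT/H1074R replicate 3, the tumour in which Cacnb1 was high. In the list of the Lasp1 family and zyxin partners, all 6 were tested and 2 had an unadjusted p under 0.05. These were Nrap, with a difference of 0.68, and Nebl, with one of -0.43. Neb, like Nrap a gene of striated muscle, differed by 0.82 and Zyx by -0.44, both without reaching that limit. The 16 tested skeletal muscle markers were all higher by estimate, with a median difference of 0.75, and their part in Nrap and Neb was not tested.

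The genes most like Cdk12 over the tumours, among all tested genes outside the members, were Pole at a Pearson r of 0.966, Mcm6 at 0.961, Dtl at 0.951, Mki67 at 0.950 and Knl1 at 0.949. Those most like Med1 were Mki67 at 0.963, Pole at 0.962, Dtl at 0.961, H2ac21 at 0.959 and Knl1 at 0.957. Pole and Mcm6 encode proteins of DNA replication, and Mki67 is the proliferation marker Ki-67. Of the tested genes, 23 reached an r of 0.9 with Cdk12 and 34 with Med1. Likeness was measured over the same 8 arrays and describes them.

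Mki67 had log2 levels of 8.77, 7.49, 8.69 and 8.63 in the NeuNT tumours and of 8.64, 8.55, 8.68 and 7.60 in the NeuNT/H1074R tumours. NeuNT replicate 2 and NeuNT/H1074R replicate 4 were low, at -1.15 and -1.04, and the other 6 tumours were close to each other. In the same tumours, in that order, Pole lay at -0.85 and -0.78, Mcm6 at -0.81 and -0.89, Dtl at -0.78 and -0.93 and Knl1 at -0.77 and -0.91. All of these genes were picked for their r with Cdk12 over these tumours. That they were low where Cdk12 was lowest follows from that choice and is no separate result. Without the 2 tumours farthest from the median of Cdk12, its r was 0.773 with Pole, 0.630 with Mcm6, 0.816 with Dtl, 0.425 with Mki67 and 0.684 with Knl1. For Med1 it was 0.575 with Mki67, 0.733 with Pole, 0.910 with Dtl, 0.779 with H2ac21 and 0.758 with Knl1.

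**Figure D4:**
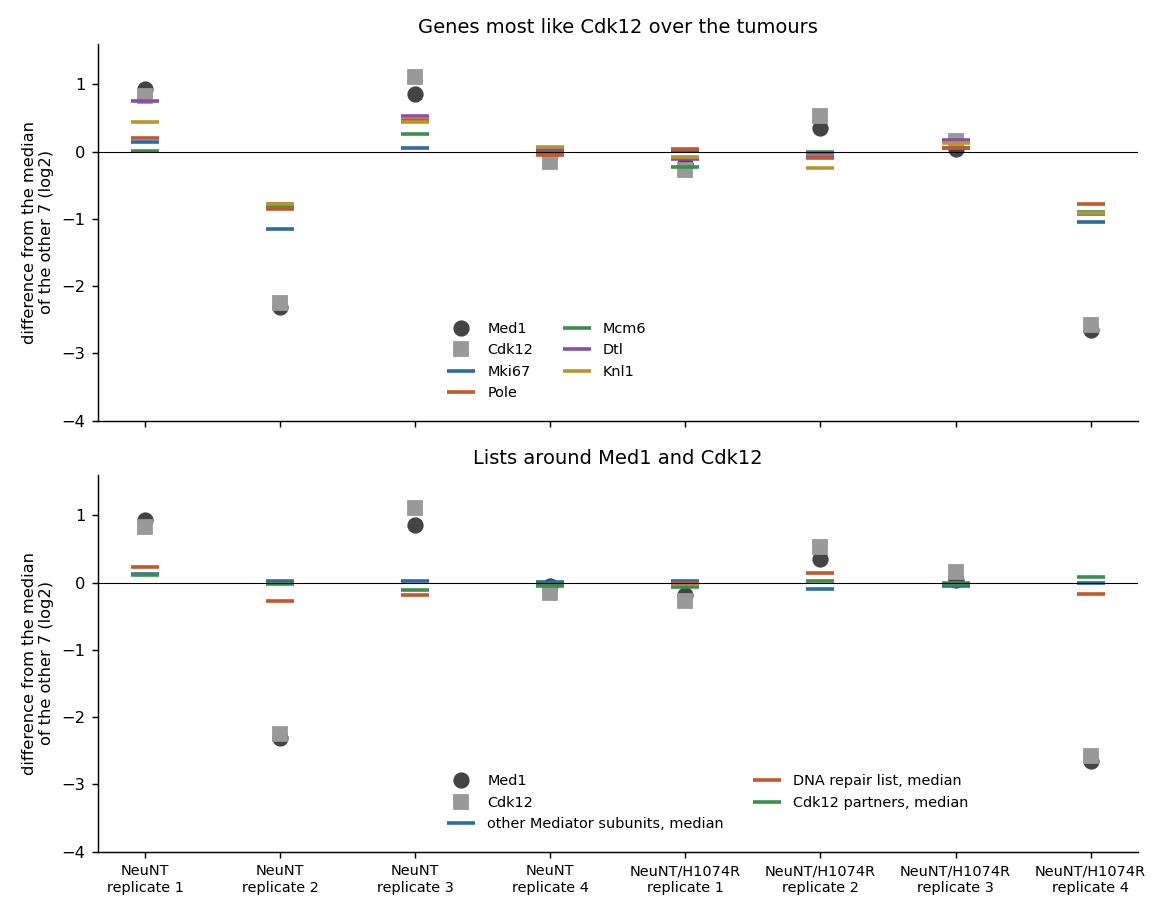
Difference of each tumour from the median of the other 7 (vertical axis, log2) for Med1 and Cdk12 as grey points, beside the genes most like Cdk12 as lines (upper panel) and the medians of the Mediator, DNA repair and Cdk12 partner lists (lower panel). In NeuNT replicate 2 and NeuNT/H1074R replicate 4, Mki67 lay at -1.15 and -1.04 and the Mediator median at 0.02 and -0.01. The genes of the upper panel were picked for their r with Cdk12 over these tumours, so their likeness to it follows from the choice.

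For Rpl19 the most alike were Foxred2 at an r of 0.982, Angptl7 at 0.979, Smarce1 at 0.976, Cntn1 at 0.970 and Camkv at 0.966. All of these rested on NeuNT/H1074R replicate 3: without the 2 tumours farthest from the median of Rpl19 the values were 0.377, -0.669, -0.117, 0.188 and 0.262. Smarce1, a subunit of the BAF chromatin remodelling complex, also lies on chromosome 11. For Lasp1 the most alike were Akirin1 at 0.978, Kctd12 at 0.974, Arhgef17 at 0.961, Urb1 at 0.961 and Itpripl2 at 0.959. These kept an r of 0.951, 0.941, 0.919, 0.902 and 0.925 without the 2 tumours farthest from the median of Lasp1.

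Epithelial markers, all 10 of them tested, had a mean level of 9.59 to 9.72 in the NeuNT tumours and 9.16 to 10.05 in the NeuNT/H1074R tumours, and all 10 passed the filter on dim genes in this labelled mammary tissue. The lowest mean, 9.16, was that of NeuNT/H1074R replicate 4, where Cdk12 was lowest, with 4 markers low, 0 high and a median of -0.33. In NeuNT replicate 2 the mean was 9.72, with 3 low, 1 high and a median of -0.09. Single markers varied more, as Krt19 did from -3.90 in NeuNT replicate 3 to 2.27 in NeuNT/H1074R replicate 3. The part of epithelial content in the levels of the members was not tested.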

How the data were processed

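Total RNA of 8 tumours was measured on Affymetrix arrays, 1 per tumour. The authors deposited 1 table of log2 values for 41345 probes. They worked in the Transcriptome Analysis Console and the Expression Console of Affymetrix, per the submitters' processing notes. Versions, the normalization and the correction for background are not stated in any source used here. The log2 scale was read off the values, which ran from 0.887 to 13.6. Arrays carry no read depth, and their number limits the precision. The arrays were used as deposited.

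The platform annotation gave 1 symbol to 23521 probes and several to 1814, and 16010 were not listed. Of 22180 genes, 1082 had several probes, and the brightest over the 8 tumours stood for the gene. The dimmest 25% of genes (mean under 4.06, 5545 genes) were left out. No source used here names the build of the array, so gene order came from RefSeq (GRCm38.p6), to which 23328 probes matched by Entrez identifier. Groups follow the labelled genotype, and replicates are numbered in accession order. Genotypes were compared by lmFit and trended eBayes of limma 3.58.1 (R 4.3.3), two-sided, with no covariate and Benjamini-Hochberg adjustment over 16635 genes, at a threshold of 0.05. The fit was tested on simulated data, in 20 runs with 200 changed genes each. It recovered 15.9% of changes of 1.5-fold, 52.9% of 2-fold, 87.3% of 4-fold and 93.6% of 8-fold. There were 6.45 false calls per run. A count of 0 calls thus leaves room for changes of 2-fold or less. Correlations of pairs of genes are described without a test.

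The members, lists and alternatives were chosen with earlier results of these data known. Named are the members, their measured neighbours where a step begins or ends, Erbb2, the 5 genes most like Cdk12, Med1, Rpl19 and Lasp1 by Pearson r (leaving out unnamed models, small RNAs and olfactory or vomeronasal receptors), and up to 4 genes of smallest p in each member's list. Alternatives were quantile normalization, median centring, the mean of all probes, no or a stricter filter on dim genes, no intensity trend, array weights, other reference tumours, another limit and leaving out each tumour; the second Rpl19 probe was added after seeing the data.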

Additional observations from a re-analysis of the deposited data

Results flagged for a closer look

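Values are listed here where 1 tumour's gap to the nearest of the other 3 of its genotype took up more of the group's range than the limit of Dixon's criterion for 4 values, which chance passes in about 1 in 20 groups. The members were chosen with these levels known, so the criterion serves to pick values to print and is no test of them. It picked 7 of 58 groups over 29 genes of the region. Among the members, Cacnb1 in NeuNT/H1074R replicate 3 was at 8.21, with the other 3 tumours of the genotype at 6.59 to 6.86. Rpl19 in the same tumour was at 13.27, with the others at 11.75 to 11.87. Med1 in NeuNT/H1074R replicate 4 was at 8.55, with the others at 11.02 to 11.52.

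Among the neighbours, Mllt6 in NeuNT replicate 1 was at 7.81, with the others of the genotype at 7.33 to 7.40. Mien1 in NeuNT replicate 2 was at 9.92, with the others at 12.41 to 12.75. Tcap, a protein of the muscle sarcomere, was at 5.29 in NeuNT replicate 2, with the others at 5.80 to 5.83, and at 6.06 in NeuNT/H1074R replicate 3, with the others at 5.74 to 5.77.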

How the results depend on the processing

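No member passed the threshold with limma under any of the 15 alternatives, and the smallest adjusted p of a member over them was 0.821. The count of 32 high or low pairs ran from 24 to 28 (of 56) with 1 tumour left out, and was 31 to 35 under the normalization, probe and reference alternatives and 29 with a limit of 1.5-fold. Leaving out 1 tumour, the genotype difference ran from -0.73 to 0.51 for Fbxl20, -1.18 to 0.21 for Med1, -1.11 to 0.23 for Cdk12 and -0.017 to 0.49 for Rpl19 (lowest without NeuNT/H1074R replicate 3), so these turned direction. It ran from -0.30 to -0.16 for Lasp1, 0.10 to 0.75 for Plxdc1, 0.28 to 0.82 for Cacnb1 and 1.39 to 2.68 for Stac2. Against the median of the other 3 of its own genotype, Stac2 was at 0.73 in NeuNT replicate 3 and at -0.38 in NeuNT/H1074R replicate 4, so its sign turned; it was at 0.38 in NeuNT/H1074R replicate 3, no longer past 0.5, at 2.26 in NeuNT/H1074R replicate 2, and at -0.77 and -0.73 in NeuNT replicates 2 and 4. No paired analysis was possible because the genotypes have no tumour number in common in the labels. With 4 tumours a genotype, the intervals of Fbxl20, Med1 and Cdk12 leave differences of over 1 log2 unit in either direction within reach.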

Other observations

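Snora21, a small nucleolar RNA gene just beyond Lasp1, was singled out after its values were seen: its genotypes did not overlap, with a difference of 0.64, a limma p of 0.0131 and an adjusted p of 0.978. Med24, a Mediator subunit gene on the far side of Erbb2, was likewise chosen after its values were seen. It lay 2.69 above the median of the other 7 in NeuNT/H1074R replicate 1, 2.50 above in NeuNT/H1074R replicate 3 and 1.24 above in NeuNT replicate 2. In those tumours Med1, the Mediator gene nearest to Cdk12, lay at -0.18, 0.04 and -2.30.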
